A study of Saccharomyces cerevisiae with 8 samples.

Results

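The step from exponential growth in liquid to a 2-day-old colony on solid medium was followed in wild-type Saccharomyces cerevisiae through mRNA level, poly(A) tail length and the share of reads that carried a tail. The comparison was defined by group label and used 4 of the 8 libraries of the series, 2 named Log phase and 2 named Day 2. Both groups were strain BY4741, a MATa haploid with the genotype his3Δ1 leu2Δ0 met15Δ0 ura3Δ0. Log phase cells came from mid-log liquid culture, and the Day 2 cells were colonies harvested 2 days after such a culture had been diluted and plated. Total RNA was extracted with hot phenol and made into PAT-seq libraries, which capture the 3′ end of polyadenylated RNA with part of its tail and were read here in 75-base SOLiD reads. The labels do not say that the 2 libraries of a group came from separate cultures, so every p-value below measures only spread between libraries. For single genes, p-values and SEs came from fits to all 8 libraries, so their spread is pooled with that of the other groups of the series. Medium, growth form and time changed together and cannot be told apart.

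A poly(A) tail is added to a pre-mRNA when it is cleaved at its 3′ end, is bound by poly(A)-binding protein, and is shortened in the cytoplasm by the Ccr4-Not and Pan2-Pan3 deadenylases before the mRNA is decapped and degraded. Yeast growing fast on glucose spends most of its transcription on ribosomes and biosynthesis. When glucose runs low, cells derepress genes for other carbon and nitrogen sources and recycle their contents in the vacuole. Set aside when single genes were ranked by level were 13 lists: ribosomal proteins, ribosome biogenesis, RNA polymerases I and III, translation factors, respiration, gluconeogenesis and fatty acid oxidation, glycolysis and hexose transport, stress, carbon reserves, autophagy, histones and a set of single genes that includes PHO12. Larger changes exist among them, such as HXT1, a hexose transporter gene, at −4.22.

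Library totals ran from 6203115 to 8441949 counts, of which 2765040 to 3782771 reads per library were counted as tailed. Levels are CPM, read counts scaled to library size after TMM, and n is 2 libraries per group throughout. Changes in level are log2 fold changes from edgeR ± SE. As the edgeR test gives no SE, the absolute change was divided by the square root of its F statistic. Such an SE is unreliable where the change is near 0. A gene is said to rise or fall where its Benjamini-Hochberg adjusted p was below 0.05. Of 5930 entries tested, 1676 were called higher on Day 2 (28.3%) and 1672 lower (28.2%), together 56.5%, and these shares are the background for every list below. TMM factors were 0.825 and 0.794 in Log phase against 1.03 and 1.07 on Day 2, so scaling to total counts moved the median log2 fold change up by 0.38, and the calls then split as 2577 higher and 962 lower. The Day 2 libraries lay farther apart than the Log phase ones, with a median absolute log2 difference between replicates of 0.26 against 0.17. Day 2 replicate 1 lay farther from Log phase than replicate 2 in 1245 of the 1676 genes called higher (74.3%) and in 1248 of the 1672 called lower (74.6%). As a check of the mating type in the labels, the summed level of 6 MATa markers was 3314 and 3759 CPM in Log phase and 2788 and 3146 CPM on Day 2. The 4 alpha-cell markers summed to between 31.8 and 44.3 CPM in the 4 libraries, and none of the markers was at 0 in all 4.

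Of the genes called higher outside those lists, the 12 with the largest change and a mean of at least 50 CPM in the higher group are described first. GDH3 encodes an NADP-dependent glutamate dehydrogenase that makes glutamate from ammonia and lies on chromosome I from 31567 to 32940. Its level was 67.7 and 79.7 CPM in the Log phase libraries and 1565 and 959.7 CPM in the Day 2 libraries. The groups stood far apart, and the change of 4.10 ± 0.21 (adjusted p = 2.29e-13) was the largest of the rises outside the lists set aside once genes below 50 CPM in both groups were left out. DCS2, which encodes a regulator of the scavenger decapping enzyme that handles cap fragments left by mRNA decay (chromosome XV, 657264 to 658325), went from 15.1 and 12.8 CPM to 279 and 176 CPM (4.02 ± 0.21, adjusted p = 5.74e-13). In bulk RNA of this kind, more cells that express a gene and more RNA per cell cannot be told apart.

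Some genes of glucose signalling were among the 12. REG2, a regulatory subunit of the Glc7 phosphatase in glucose repression, stood at 5.6 and 9.49 CPM in Log phase and at 101 and 81.4 CPM on Day 2 (3.60 ± 0.22). MTH1, a negative regulator in the glucose-sensing pathway that acts with Rgt1, went from 8.19 and 6.33 CPM to 84.0 and 70.7 CPM (3.40 ± 0.20). GID8, a subunit of the ubiquitin ligase that degrades gluconeogenic enzymes when glucose returns, went from 7.18 and 8.86 CPM to 117 and 75.5 CPM (3.58 ± 0.22). For each of these genes both Day 2 libraries were several times above both Log phase libraries. GPG1, a proposed gamma subunit that works with the glucose receptor Gpr1, rose by 3.55 ± 0.17, and its Day 2 libraries, at 209.8 and 204 CPM, were closer together than those of the other genes. URA10, the minor orotate phosphoribosyltransferase of pyrimidine synthesis, rose by 3.55 ± 0.22.

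Others of the largest rises came from genes with no described role. YCL048W-A (3.69 ± 0.19), YMR206W (3.63 ± 0.23), YHR140W (3.46 ± 0.25) and YGR174W-A (3.40 ± 0.19) are annotated in the deposited gene table as putative proteins of unknown function. RRT1, annotated there as a dubious reading frame, rose from 53.6 and 42.5 CPM to 652 and 476 CPM (3.55 ± 0.18). Entries known only by a systematic name had 223 of 760 higher, a share close to the 28.3% of all genes. They had 127 lower, a smaller share than the 28.2% of all genes. Their median change was 0.27, where all genes tested had a median of 0.02.

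**Figure D1:**
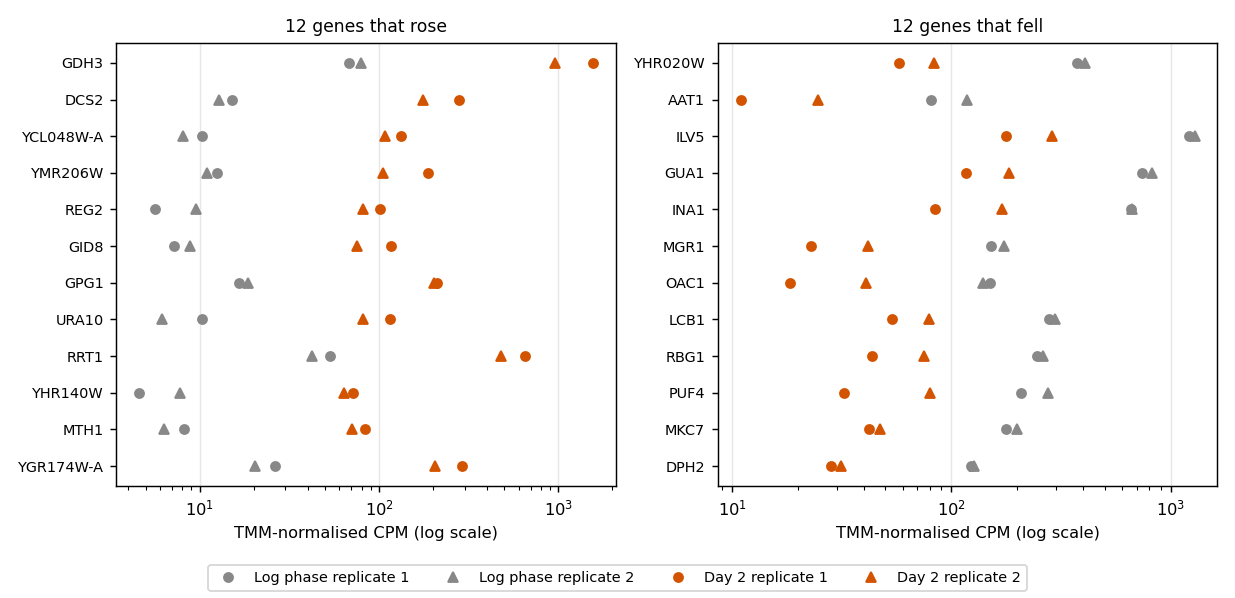
TMM-normalised CPM, on a log axis, of the 12 genes that rose most and the 12 that fell most by the naming rule, with each library as a point. In all 24 genes both Day 2 libraries lie on the same side of both Log phase libraries, as for GDH3 with 67.7 and 79.7 CPM against 1565 and 959.7 CPM. The same held for 1671 of the 1676 genes called higher (99.7%) and 1671 of the 1672 called lower (99.9%), so it adds nothing to the call.

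The 12 genes that fell most were taken by the same rule, outside the lists set aside and with a mean of at least 50 CPM in the higher group. YHR020W, the prolyl-tRNA synthetase gene (chromosome VIII, 143996 to 146062), fell from 376 and 407 CPM to 57.9 and 83.5 CPM (−2.46 ± 0.18, adjusted p = 6.83e-11). ILV5, the acetohydroxyacid reductoisomerase of branched-chain amino acid synthesis (chromosome XII, 838066 to 839253), fell from 1219 and 1288 CPM to 177 and 288 CPM (−2.43 ± 0.18, adjusted p = 1.48e-10). GUA1, the GMP synthase gene, fell from 744 and 819 CPM to 116 and 182 CPM (−2.38 ± 0.19). The groups did not overlap for any of them, as for nearly all called genes, and Day 2 replicate 2 was the milder of the Day 2 libraries.

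AAT1, the mitochondrial aspartate aminotransferase gene, went from 80.5 and 118 CPM to 10.9 and 24.7 CPM (−2.45 ± 0.27). OAC1, an oxaloacetate carrier of the mitochondrial inner membrane, fell by 2.27 ± 0.24 on the log2 scale, and LCB1, a subunit of the serine palmitoyltransferase that starts sphingolipid synthesis, by 2.11 ± 0.18. DPH2, needed to make diphthamide on elongation factor 2, fell from 123 and 127 CPM to 28.1 and 31.4 CPM (−2.07 ± 0.17). PUF4, an RNA-binding protein of the Pumilio family, went from 207 and 277 CPM to 32.3 and 80.2 CPM (−2.09 ± 0.25). The remaining genes chosen by the same rule were INA1 (−2.38 ± 0.21), MGR1 of the mitochondrial i-AAA protease (−2.32 ± 0.21), the ribosome-associated GTPase gene RBG1 (−2.09 ± 0.20) and the yapsin protease gene MKC7 (−2.07 ± 0.20).

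Gene lists for 76 further processes were read by their counts and medians against the 28.3% higher and 28.2% lower over all genes, with no test of a list as a whole. In several lists a count of 2 or fewer moved by 1 or 2 genes when a library was left out, and some larger counts moved by more than 1.5 times. Of 89 lists, the lists set aside included, 23 to 36 were labelled as moved when 1 library was left out. Counting tailed reads only, 42 were. Scaling to total counts changed the sign of the median in 23 of 89 lists, the lists set aside included. Genes that serve protein synthesis outside the ribosome were lower in large part. Cytosolic tRNA synthetase genes, which charge tRNAs with amino acids, had 20 of 21 lower and 0 higher (median −1.05, −0.66 with scaling to total counts), led by YHR020W, DED81 (−1.84 ± 0.15) and SES1 (−1.39 ± 0.16). Genes for tRNA modification enzymes had 26 of 40 lower and 1 higher (median −0.76), with TRM8 (−1.84 ± 0.17), TRM44 (−1.90 ± 0.26) and NCS2 lower, while MOD5, the tRNA isopentenyltransferase gene, rose (0.74 ± 0.16). The chaperonin CCT and its partner prefoldin, which fold actin and tubulin, had 12 of 14 lower and 0 higher (median −0.76), including CCT2 (−1.45 ± 0.15), CCT3 (−1.41 ± 0.17) and GIM5 (−1.29 ± 0.18). Proteasome genes had 20 of 34 lower and 0 higher (median −0.48), with PRE8 (−1.34 ± 0.16) in front. Their counts were 8 lower and 5 higher with scaling to total counts (median −0.10). Ubiquitin and its conjugating enzymes had 3 of 14 higher (21.4%, below the share of all genes) and 2 lower, with a median of 0.03, and the members that rose included the polyubiquitin gene UBI4 (1.83 ± 0.17) and the conjugating enzyme gene UBC5 (1.32 ± 0.16). Without Log phase replicate 1 the counts were 2 higher and 0 lower.

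Biosynthesis of amino acids split by pathway. Branched-chain amino acid genes had 8 of 9 lower and 0 higher (median −1.35), with ILV5, ILV3 (−1.85 ± 0.18), the isopropylmalate isomerase gene LEU1 (−1.77 ± 0.15) and BAT1, the mitochondrial branched-chain aminotransferase gene (−1.35 ± 0.17). Aromatic amino acid genes had 9 of 13 lower and 1 higher (median −0.57), but 4 lower and 2 higher with scaling to total counts (median −0.19). ARO7 (−1.59 ± 0.18) and ARO4 (−1.25 ± 0.15) were lower and TRP1 higher (1.20 ± 0.15). The aspartate and serine families had 7 of 12 lower and 1 higher (median −0.52), led by THR1 (−1.36 ± 0.15) and HOM3 (−1.57 ± 0.20). Sulfate assimilation and methionine genes had 11 of 22 lower, 7 without Log phase replicate 2, and 4 higher, 2 without that library (median −0.42). In that list CYS4 (−1.53 ± 0.16) and MET6 (−1.28 ± 0.15) fell, while STR2 (1.55 ± 0.19) and STR3 (1.07 ± 0.26), which convert cysteine to homocysteine by way of cystathionine, rose. Arginine genes (2 of 9 lower, 1 higher) and lysine genes (3 of 9 lower, 2 higher) were near the background, with medians of −0.14 and −0.12 that became 0.25 and 0.26 with scaling to total counts. In the lysine pathway LYS4 was still among those that fell (−1.53 ± 0.23).

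Amino acid and allantoin breakdown genes had 11 of 20 higher and 4 lower (median 0.74). DAL2, the allantoicase gene, went from 7.76 and 6.17 CPM to 36.2 and 25.4 CPM (2.13 ± 0.23), and DAL3, the ureidoglycolate lyase gene, rose by 1.75 ± 0.25. GDH2, which encodes the NAD-dependent dehydrogenase that breaks glutamate down, rose by 1.83 ± 0.16, and BAT2, the cytosolic branched-chain aminotransferase gene, by 1.80 ± 0.17. The 4 that fell were the arginase gene CAR1 (−0.90), the proline regulator gene PUT3 (−1.09), ARO10 (−0.61) and ARO9 (−0.43). Among amino acid and peptide permeases, 7 of 21 were higher and 6 lower (median 0.38), both shares close to those of all genes.

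PUT4, the proline permease gene, stood at 50.3 and 43.5 CPM in Log phase and at 282 and 269 CPM on Day 2 (2.55 ± 0.16). GAP1, the general amino acid permease gene, rose by 2.31 ± 0.19 and AGP1 by 2.30 ± 0.17, while OPT1, an oligopeptide and glutathione transporter gene, fell (−2.07 ± 0.21). Glutamine synthetase, encoded by GLN1, rose from 707 and 654 CPM to 1319 and 1699.7 CPM (1.15 ± 0.15), and the ammonium permease gene MEP2 rose by 1.54 ± 0.18. In the branched-chain system the mitochondrial enzyme gene BAT1 fell and its cytosolic counterpart BAT2 rose.

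Nucleotide genes mostly fell, with exceptions in isozymes. Purine synthesis had 11 of 17 lower and 0 higher (median −0.52), but 7 lower and 4 higher with scaling to total counts (median −0.14). Those lower included GUA1, the IMP dehydrogenase gene IMD4 (−1.82 ± 0.16) and HPT1 (−1.84 ± 0.18), a purine salvage enzyme gene. Pyrimidine synthesis and uptake had 5 of 12 lower and 4 higher (median −0.23, 0.15 with scaling to total counts). There FUR1, the uracil salvage enzyme gene, fell by 1.71 ± 0.15 on the log2 scale, while the minor isozyme genes URA10 and URA8 (1.32 ± 0.16) rose. One-carbon genes had 5 of 12 lower and 1 higher (median −0.36, 0.02 with scaling to total counts), led by the serine hydroxymethyltransferase gene SHM2 (−1.53 ± 0.16).

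Phosphate genes had 12 of 18 lower and 2 higher (median −1.04, −0.66 with scaling to total counts). PHO12, a repressible acid phosphatase gene nearly identical to PHO11 and therefore uncertain, fell by 2.71 ± 0.21. VTC3 and VTC4, subunits of the vacuolar polyphosphate polymerase, fell from 448 and 455 to 115 and 154 CPM (−1.75 ± 0.17) and from 389.5 and 436 to 95.4 and 137 CPM (−1.82 ± 0.17). Against them PHO89, the sodium-phosphate cotransporter gene, rose from 21.6 and 17.7 CPM to 86.6 and 74.4 CPM (2.03 ± 0.17), and PHO87, a low-affinity carrier gene, rose by 0.77 ± 0.18. Iron uptake genes had 9 of 23 lower and 5 higher, 2 without Log phase replicate 2 (median −0.03, 0.35 with scaling to total counts). FET3, the multicopper oxidase of high-affinity iron uptake, fell from 1633 and 1658 to 358 and 484 CPM (−1.97 ± 0.15), and its partner permease gene FTR1 fell by 1.297 ± 0.15 on the log2 scale. FRE5 rose by 2.50 ± 0.80 from near the floor of 3 counts, at 0.575 and 0.158 CPM in Log phase and 2.03 and 2.34 CPM on Day 2, so the size of its change is poorly known.

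Lipid genes divided between membrane sterol and fatty acid synthesis, which fell, and storage lipids and phosphatidylcholine, which included large rises. Ergosterol and mevalonate genes had 14 of 24 lower and 0 higher (median −0.49), but 9 lower and 5 higher with scaling to total counts (median −0.11). ERG6 stood at 968 and 956 CPM in Log phase and 279 and 328 CPM on Day 2 (−1.66 ± 0.15). Fatty acid synthesis genes had 10 of 14 lower, 6 without Log phase replicate 1, and 2 higher (median −0.58). Under scaling to total counts 5 were lower and 3 higher (median −0.20). FAA4, a fatty acyl-CoA synthetase gene, fell by 2.04 ± 0.17 on the log2 scale and ACC1, the acetyl-CoA carboxylase gene, by 1.73 ± 0.18, while the related synthetase gene FAA1 rose (0.97 ± 0.14). Lipid droplet genes had 6 of 12 higher and 1 lower (median 0.34), with DGA1, the diacylglycerol acyltransferase gene, rising by 2.23 ± 0.21 and PET10, a droplet-coat protein gene, by 1.98 ± 0.16. OPI3, the last methyltransferase of phosphatidylcholine synthesis, rose from 180.5 and 156 CPM to 1049 and 884 CPM (2.52 ± 0.15). Sphingolipid genes had 8 of 22 higher and 6 lower, 5 and 3 without Log phase replicate 2 (median 0.09): the hydroxylase gene SCS7 (2.22 ± 0.15) and the ceramidase genes YDC1 (2.14 ± 0.16) and YPC1 (1.81) rose, and LCB1 fell.

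Vacuolar hydrolase, sugar-use and peroxin lists had many members higher and 0 lower. Vacuolar hydrolases and their inhibitors had 9 of 13 higher and 0 lower (median 1.51). PAI3, which encodes the inhibitor of proteinase A, went from 37.5 and 34.0 CPM to 387 and 244 CPM (3.14 ± 0.19), and PBI2, which encodes the inhibitor of proteinase B, rose by 2.97 ± 0.21. The inhibitor mRNAs thus rose more than that of proteinase B itself, PRB1 (1.76 ± 0.14), and the α-mannosidase gene AMS1 rose by 2.01 ± 0.16, though the difference between these changes was not tested. Genes for galactose, maltose and sucrose use had 11 of 19 higher and 0 lower (median 1.01), many from low levels. The galactose genes GAL1 (0.18 ± 0.29), GAL10 (0.05 ± 0.51) and GAL7 (−0.02 ± 0.95) were not called, and they are named here after their values were seen. MAL12, a maltase gene, went from 2.16 and 2.37 CPM to 36.5 and 29.6 CPM (3.86 ± 0.34), and the isomaltase genes IMA4 (2.78 ± 0.31) and IMA3 (2.75 ± 0.32) and the permease gene MAL31 (2.70 ± 0.30) followed. Members of these subtelomeric families share reads with near-identical copies, so their single values are uncertain. Peroxins, the proteins that import enzymes into peroxisomes, had 12 of 25 higher and 0 lower (median 0.51), with PEX18, a coreceptor of the PTS2 import route, at 2.44 and 1.90 CPM in Log phase and 16.5 and 15.5 CPM on Day 2 (2.86 ± 0.28).

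At the cell surface the picture was mixed. Drug efflux pumps had 9 of 19 higher and 0 lower (median 0.44), with PDR10 (1.25 ± 0.16) and the merged entry of PDR15 (1.62 ± 0.15, assignment uncertain). Eisosome genes, which organise furrows of the plasma membrane, had 8 of 15 higher and 1 lower (median 0.52): PUN1 (1.24 ± 0.20) and YNL194C (1.13 ± 0.18) rose, and SUR7 fell (−1.65 ± 0.17). Cell wall genes had 12 of 34 lower and 8 higher (median −0.05, 0.34 with scaling to total counts). GSC2, the alternative catalytic subunit of glucan synthase, went from 121 and 106 CPM to 561 and 562 CPM (2.30 ± 0.15), and UTR2, a chitin transglycosylase gene, from 541 and 554 CPM to 129 and 154 CPM (−1.95 ± 0.16). In the secretory pathway, coat and cargo receptor genes had 16 of 30 lower and 4 higher (median −0.43), but 9 lower and 10 higher with scaling to total counts (median −0.05). EMP46 rose from 6.75 and 5.38 CPM to 39.0 and 36.3 CPM (2.63 ± 0.22) while its paralog EMP47, also a lectin-like cargo receptor gene, fell (−1.58 ± 0.18). Glycosylation genes of the endoplasmic reticulum had 16 of 32 lower and 2 higher (median −0.39), and their median moved to near 0 under scaling to total counts.

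**Figure D2:**
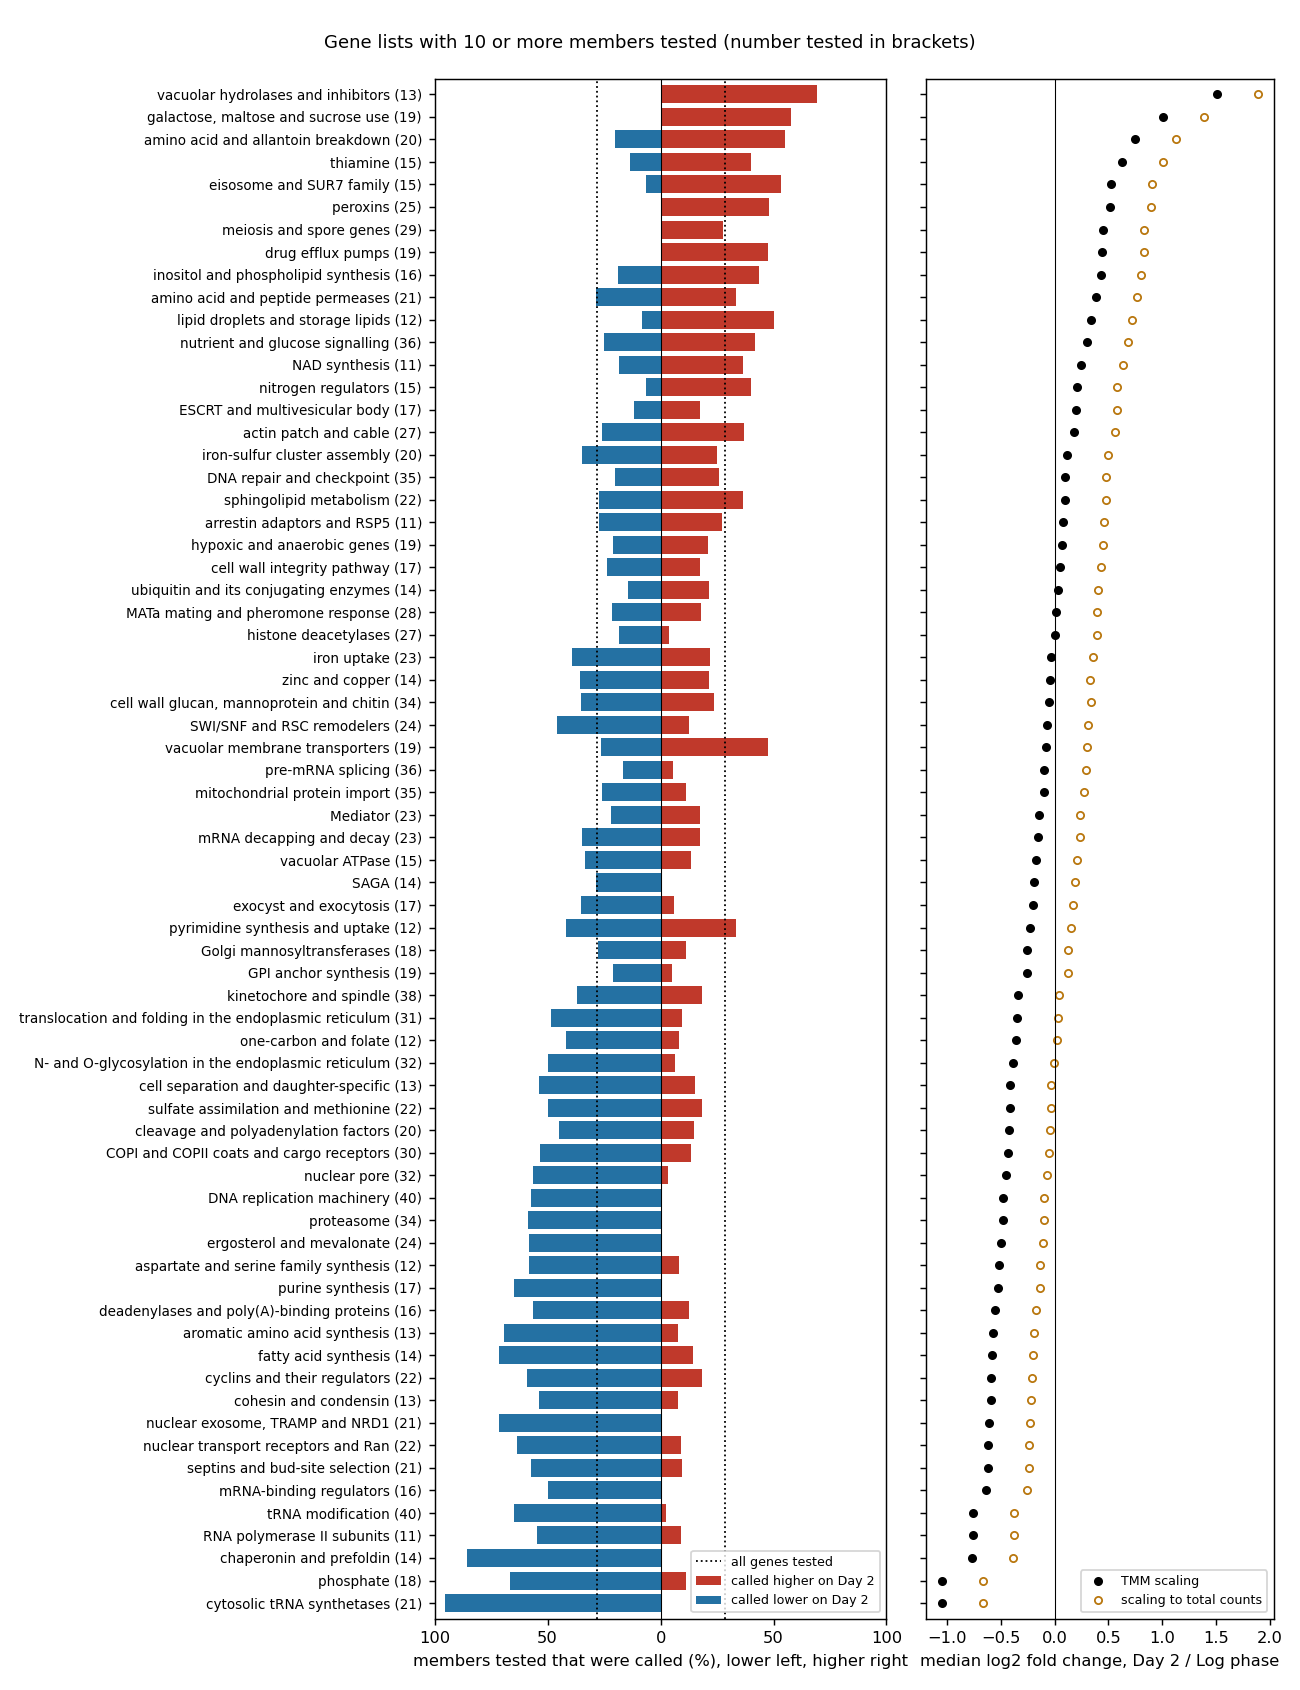
For each list with at least 10 members tested, the left panel gives the percent of members called higher (right of 0) or lower (left of 0) on Day 2, with dotted lines at the shares of all genes, 28.3% and 28.2%. The right panel gives the median log2 fold change with TMM scaling (filled) and scaling to total counts (open): tRNA synthetases and phosphate genes are lowest at −1.05 and −1.04, and vacuolar hydrolases are highest at 1.51.

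Growth and division genes were lower in most lists, as far as the scaling allowed. DNA replication genes had 23 of 40 lower and 0 higher (median −0.48), but 14 lower and 4 higher with scaling to total counts (median −0.10). Those lower included the GINS subunit gene PSF1 (−1.51 ± 0.16) and the origin recognition gene ORC2 (−1.43 ± 0.17). Cyclins and their regulators had 13 of 22 lower and 4 higher (median −0.59): the G1 cyclin genes CLN1 and CLN2 fell from 253 and 270.0 CPM to 95.0 and 116 CPM (−1.31 ± 0.15) and from 247 and 229.6 CPM to 85.1 and 98.6 CPM (−1.38 ± 0.17). The members that rose were CDH1 (0.80), PCL5 (0.81), PHO85 (0.70) and PCL7 (0.67). Septin and bud-site genes had 12 of 21 lower and 2 higher (median −0.62), and cohesin and condensin genes 7 of 13 lower and 1 higher (median −0.59). The exception there was SCC4, a cohesin loader subunit gene, at 50 and 73.1 CPM in Log phase and 228 and 171 CPM on Day 2 (1.70 ± 0.19). Kinetochore and spindle genes had 14 of 38 lower and 7 higher, 2 without Log phase replicate 1, and their median of −0.34 became 0.04 with scaling to total counts.

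Lists of nuclear functions differed. Pre-mRNA splicing genes had 6 of 36 lower, 3 without Log phase replicate 1, and 2 higher (median −0.09, 0.29 with scaling to total counts). Histone deacetylase genes had 5 of 27 lower, 2 without Log phase replicate 2, and 1 higher, 4 without Day 2 replicate 2 (median 0.01). Mediator genes had 5 of 23 lower, 3 without Day 2 replicate 1 or Log phase replicate 1, and 4 higher, 2 without Log phase replicate 2 (median −0.15, 0.24 with scaling to total counts). DNA repair and checkpoint genes had 9 of 35 higher and 7 lower (median 0.10). In the lists that follow, lower calls were more frequent. RNA polymerase II subunits had 6 of 11 lower and 1 higher (median −0.76), with RPO21, the largest subunit, at −1.57 ± 0.20. The nuclear exosome with its TRAMP and Nrd1 partners, which trims and degrades nuclear RNA, had 15 of 21 lower and 0 higher (median −0.61): NRD1 fell from 193 and 199.8 CPM to 44.5 and 53.6 CPM (−1.997 ± 0.19) and the helicase gene MTR4 by 1.70 ± 0.17 on the log2 scale. Nuclear pore genes had 18 of 32 lower, 11 without Log phase replicate 1, and 1 higher (median −0.45). Under scaling to total counts 8 were lower and 3 higher (median −0.07). Nuclear transport receptors had 14 of 22 lower and 2 higher (median −0.62). Within that list the paralogs for the Ran GTPase moved apart. GSP1 fell from 2535 and 2394 CPM to 548 and 758 CPM (−1.91 ± 0.16), and GSP2 rose from 39.4 and 30.2 CPM to 164 and 151 CPM (2.18 ± 0.16), so GSP1 still had several times the CPM of GSP2 in each Day 2 library.

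Glucose and nutrient signalling genes had 15 of 36 higher and 9 lower (median 0.30). SIP2, a β subunit of the Snf1 kinase, rose by 2.05 ± 0.19, and PDE1, the low-affinity cAMP phosphodiesterase gene, by 1.80 ± 0.16. STD1, the paralog of MTH1, went the other way, from 304 and 319 CPM to 119 and 122 CPM (−1.37 ± 0.17). Meiosis and spore genes had 8 of 29 higher, 5 without Log phase replicate 1, and 0 lower (median 0.45), a share of higher calls near the background, mostly at low levels. Of 12 meiosis markers, 3 were higher and 0 lower, and their summed level was 69.7 and 65.6 CPM in Log phase and 91.3 and 91.9 CPM on Day 2. Mating genes had 5 of 28 higher, 3 without Log phase replicate 1, and 6 lower. MFA1, an a-factor gene, stood at 1275 and 1468 CPM in Log phase and 1433 and 1416 CPM on Day 2 (0.05 ± 0.14, not called), MFA2 fell by 0.81 ± 0.17 on the log2 scale, and the a-agglutinin subunit gene AGA2 rose (0.92 ± 0.15). Counting tailed reads only, the MFA2 change was positive (0.49).

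The machinery that makes and removes tails was itself lower in part. PAB1, the cytoplasmic poly(A)-binding protein gene, went from 2259 and 2750.2 CPM to 761 and 880.5 CPM (−1.61 ± 0.15, adjusted p = 2.51e-09). NAB2, a nuclear poly(A)-binding protein gene, fell from 74.1 and 82.2 CPM to 24.5 and 37.5 CPM (−1.33 ± 0.20), and CCR4, the main deadenylase gene, from 79.7 and 92.7 CPM to 25.3 and 40.5 CPM (−1.38 ± 0.21). All 3 had both Day 2 libraries below both Log phase libraries, as did nearly all genes called lower. Deadenylase and poly(A)-binding protein genes together had 9 of 16 lower and 2 higher, 0 without Day 2 replicate 1 (median −0.55), with CDC39, the Ccr4-Not scaffold gene, at −0.998 ± 0.15 and CAF40 at −1.01 ± 0.18. The deadenylase subunit gene POP2 (0.08 ± 0.16) and PAN2 (0.06 ± 0.21) were not called. Cleavage and polyadenylation factors had 9 of 20 lower, 4 without Log phase replicate 2, and 3 higher (median −0.42, −0.04 with scaling to total counts). CFT2 (−0.91 ± 0.20), PTI1 (−0.88 ± 0.21) and PCF11 (−0.87 ± 0.24) were among those lower, and the poly(A) polymerase gene PAP1 was not called (0.26 ± 0.24). Decapping and decay genes had 8 of 23 lower, 4 without Log phase replicate 2 and 5 without Log phase replicate 1, and 4 higher (median −0.15, 0.23 with scaling to total counts). The decapping activator genes EDC1 (1.58 ± 0.22), EDC2 (1.34 ± 0.16) and DHH1 (1.15 ± 0.27) rose, while SKI2 and PAT1 were at −1.11 and −1.08.

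Tails were longer on Day 2 in most genes, by a median of about 1 nt. For a single gene that is about the typical absolute difference between replicates. Tail length here is the authors' mean over the tailed reads of a gene, from 4 to 49 nt in the deposited table, so it describes the part of a tail that a read could cover. The median over genes was 19.7 and 19.1 nt in the Log phase libraries and 20.3 and 20.5 nt in the Day 2 libraries. Both Day 2 medians were above both Log phase medians, and the exact permutation test of 2 against 2 libraries gave p = 0.333, the smallest it allows. Over the 5388 genes that had 10 or more tailed reads per library the median change was 0.963 nt, and 71.6% of genes were above 0. Leaving out 1 library at a time gave medians from 0.727 to 1.23 nt, and subtracting each library's median gave −0.0568 nt. The median absolute difference between replicates was 1.02 nt in Log phase and 1.14 nt on Day 2. In 2302 genes (42.7%) both Day 2 libraries were above both Log phase libraries, and in 558 (10.4%) below both. With a gap of more than 2 nt between the groups the counts were 551 (10.2%) and 73 (1.35%).

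Few single genes passed the limma test for tail length. The test called 59 genes longer (1.1%) and 5 shorter (0.0928%), and 1223 genes had an unadjusted p below 0.05 (22.7%). These calls are fragile. None of them was made with any 1 of the 4 libraries left out, nor without weights, on a log2 scale, after centring, with only the 4 libraries in the fit or with a replicate block, while heavier weights for deep genes gave 605 and 43. The adjusted p-values of the called genes lie between 0.0458 and 0.0494, so their values in each library carry more information than the call. Besides the mRNAs there were 4 called entries outside protein-coding genes, which the count table does not hold: the U2 spliceosomal RNA LSR1, read at 10.1 and 11.9 nt in Log phase and at 15.7 and 16.8 nt on Day 2, the 5S ribosomal RNA copies RDN5-3 and RDN5-4, which share reads, and the lysine tRNA tK(CUU)J.

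**Figure D3:**
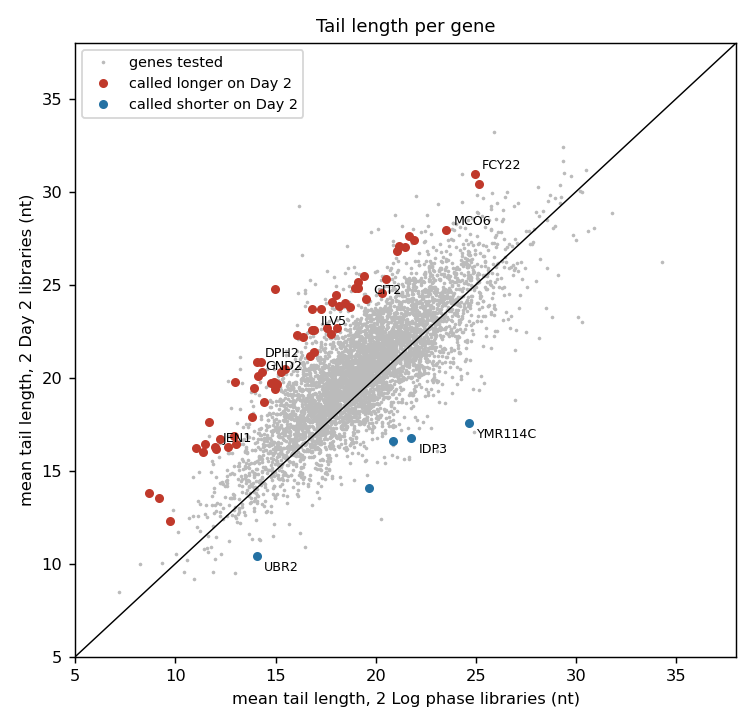
Mean tail length in nt of each of the 5388 genes tested, over the 2 Log phase libraries (horizontal) and the 2 Day 2 libraries (vertical), with the line of no change. Most points lie above the line, 59 genes called longer are in red and the 5 called shorter in blue.

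Tail length and level were compared across the 5156 genes tested for both. Genes whose level fell gained more tail than genes whose level rose. The 1594 genes called lower in level had a median tail change of 1.40 nt, with 81.6% above 0, the 2062 not called had 0.907 nt, and the 1500 called higher had 0.576 nt, with 64.2% above 0. Median tails of the genes called lower were 19.3 and 18.7 nt in Log phase and 20.3 and 20.6 nt on Day 2. Those of genes called higher were 19.9 and 19.4 nt in Log phase and 20.2 and 20.2 nt on Day 2. The falling mRNAs thus began with shorter tails than the rising ones in both Log phase libraries and had longer ones in both Day 2 libraries, by less than 1 nt each time.

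Along the size of the change the median tail gain became smaller up to a modest rise in level and had no order beyond it. The 45 genes that fell by more than 2 on the log2 scale gained a median of 2.39 nt, the 635 between −2 and −1 gained 1.56 nt, and the genes that rose by 0.5 to 1, by 1 to 2 and by more than 2 (217 genes) gained 0.5001, 0.628 and 0.549 nt. With Day 2 replicate 1 alone the first and last of these medians were 2.17 and 0.548 nt, with replicate 2 alone 2.56 and 0.438 nt, and against Log phase replicate 1 or 2 alone 1.84 and 0.268 nt or 2.72 and 0.591 nt. Across genes Pearson's r between the log2 fold change and the tail change was −0.20 and Spearman's rho −0.21, both measures coming from the same libraries and genes not being independent. Among 2918 genes with at least 100 tailed reads in each of the 4 libraries r was −0.20 as well. A gap of more than 2 nt toward longer tails was found in 241 of the genes called lower (15.1%) and 102 of those called higher (6.8%), and toward shorter tails in 5 and 27 of them. No test of the difference between these classes was made.

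**Figure D4:**
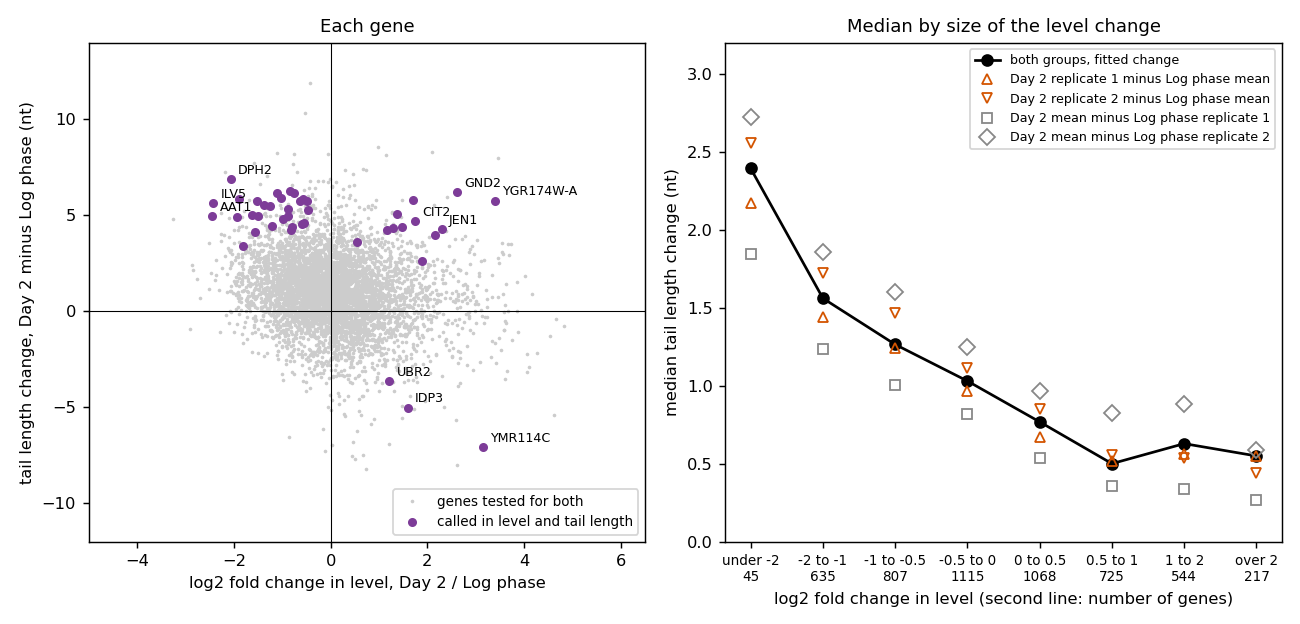
The left panel plots the change in tail length (nt) against the log2 fold change in level for 5156 genes, with the 43 called in both in purple. The right panel gives the median tail change in bins of the level change, for the fitted change and with single libraries of either group: the fitted median goes from 2.39 nt in the genes that fell most to 0.549 nt in those that rose most.

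In 43 genes (0.834%) level and tail were both called. Of these, 28 had a lower level and a longer tail (0.543%), 12 a higher level and a longer tail (0.233%), 3 a higher level and a shorter tail (0.0582%), and 0 were lower in both. As the tail calls did not outlast the removal of any library, neither did these.

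ILV5 led the genes with a lower level and a longer tail together with DPH2 by the product of both changes. ILV5 tails were 17.8 and 16.0 nt in Log phase and 22.7 and 22.4 nt on Day 2, over 556 to 2488 tailed reads per library (5.65 ± 0.824 nt, adjusted p = 0.0458). The change was 4.74 to 6.56 nt whichever library was left out. The share of its reads that carried a tail also rose, from 29.3% and 27.5% to 49.1% and 41.4%, so that ILV5 was one of 3 genes called in level, tail length and tailed share. RPL7B, a large-subunit ribosomal protein gene, went from 18.8 and 18.2 nt to 23.7 and 24.3 nt (5.52 ± 0.751 nt) while its level fell by 1.39 ± 0.15 on the log2 scale.

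DPH2 and AAT1, already named for their drop in level, had tails of 14.6 and 13.6 nt in Log phase against 19.5 and 22.2 nt on Day 2 (6.89 ± 1.05 nt), and of 11.7 and 11.2 nt against 16.5 and 16.4 nt (4.95 ± 0.860 nt, on as few as 32 tailed reads). RRP36, a factor of small-subunit ribosome assembly, had 21.2 and 22.1 nt against 28.0 and 27.2 nt, and the chromatin remodeller gene ISW1 14.1 and 15.4 nt against 19.2 and 20.2 nt. YLR108C and HLR1 completed the 8 genes chosen by the product of both changes, with gains of 5.76 ± 0.911 and 5.02 ± 0.729 nt. Exosome core subunit genes were among the 12 largest gains by the naming rule, RRP42 from 17.7 and 17.9 to 25.1 and 23.0 nt and RRP45 from 14.5 and 14.03 to 22.5 and 19.2 nt, and both fell in level (−0.85 ± 0.15 and −1.10 ± 0.20).

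Genes that rose in level with a longer tail included several of carbon metabolism. CIT2, the peroxisomal citrate synthase gene known as a target of mitochondrial retrograde signalling (chromosome III, 120946 to 122328), went from 459 and 345 CPM to 1404 and 1296 CPM and from 19.6 and 19.4 nt to 24.3 and 24.2 nt (4.69 ± 0.730 nt). JEN1, the lactate and pyruvate permease gene (chromosome XI, 22234 to 24084), went from 83.2 and 74.8 CPM to 432 and 342 CPM and from 11.8 and 12.2 nt to 16.1 and 16.4 nt (4.29 ± 0.607 nt). In both genes the replicates of a group lay close together and the groups stood apart. GND2, the minor 6-phosphogluconate dehydrogenase gene, rose by 2.61 ± 0.16 with tails of 13.3 and 15.0 nt in Log phase, on 41 and 25 tailed reads, and 20.9 and 19.3 nt on Day 2.

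YGR174W-A had 12.1 and 11.3 nt in Log phase and 17.1 and 18.2 nt on Day 2 beside its rise of 3.40 ± 0.19. ICY1, MCO6, JID1 and YER084W gained 5.09 ± 0.767, 4.39 ± 0.807, 5.797 ± 1.07 and 3.96 ± 0.755 nt while rising by 1.37 ± 0.17, 1.47 ± 0.15, 1.71 ± 0.19 and 2.16 ± 0.18 on the log2 scale. Longer tails thus occurred with changes in level of either sign.

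The opposite pairing was led by YMR114C (chromosome XIII, 496343 to 497449), which has no gene name in the deposited table. Its level went from 19.97 and 18.3 CPM to 196 and 143 CPM (3.14 ± 0.18) while its tails went from 24.6 and 24.7 nt to 17.0 and 18.1 nt (−7.08 ± 1.19 nt, adjusted p = 0.0460). Its tailed share went from 31.7% and 25% to 16.6% and 12.9%. UBR2, a ubiquitin ligase gene whose product controls the proteasome regulator Rpn4, rose from 50.3 and 57.6 to 143 and 107 CPM with tails of 14.3 and 13.8 nt against 10.3 and 10.5 nt (−3.63 ± 0.664 nt). IDP3, the peroxisomal isocitrate dehydrogenase gene, rose by 1.597 ± 0.22 with tails of 22.3 and 21.3 nt against 16.8 and 16.7 nt. Tails also changed where the level hardly did: the chitin synthase gene CHS1 had 20.7 and 21.0 nt against 17.0 and 16.2 nt at 65.7, 62.6, 71.6 and 71.7 CPM. In the other direction KRE2, a mannosyltransferase gene of the Golgi, had 17.0 and 16.9 nt against 21.7 and 21.1 nt at 342, 329, 287 and 327 CPM, and SFA1, an alcohol dehydrogenase gene, gained 4.602 ± 0.824 nt with a log2 fold change of −0.22 ± 0.15.

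Lists differed in their median tail change around the 0.963 nt of all genes. Sulfate and methionine genes (1.73 nt), the nuclear exosome list (1.71 nt), nuclear transport (1.69 nt) and tRNA modification (1.602 nt) were above it, and all 4 had more lower than higher calls in level. Actin patch genes (0.138 nt), kinetochore genes (0.239 nt) and nuclear pore genes (0.346 nt) were below it, although 18 of 32 nuclear pore genes had fallen. Vacuolar hydrolases had 0.531 nt and peroxins 0.659 nt beside their rises in level. These lists are examples and not the full order. Lysine genes (1.69 nt, 3 lower and 2 higher in level) and ubiquitin genes (1.63 nt, 2 lower and 3 higher) were also above the 0.963 nt. SAGA complex genes had 0.0144 nt, although 4 of 14 were lower in level and 0 higher. Drug pumps rose in level and had 1.61 nt, so the order across lists did not follow the level throughout.

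The share of a gene's reads that carried a tail moved separately in some genes. Over 4398 genes with at least 20 reads in each library and like counts in both tables, 122 had a higher tailed share on Day 2 (2.77%) and 53 a lower one (1.21%), together 3.98%, by limma on log2 odds, with a median change of 0.136. Without Day 2 replicate 1 there were 0 calls either way and the median was 0.0439. Without Log phase replicate 1 there were 0 higher and 2 lower, without Log phase replicate 2 0 and 3, and without Day 2 replicate 2 239 and 64. The median tailed share per gene was 40.7% and 39.3% in Log phase and 44.4% and 40.7% on Day 2. Over all reads of entries with like counts in both tables, it was 42.2% and 40.7% in Log phase and 41.1% and 39.4% on Day 2. The pooled share thus did not rise. Level and share were both called in 124 genes (2.82%): 48 lower in level and higher in share, 34 higher in both, 29 higher in level and lower in share, and 13 lower in both.

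GDH3, described above for its rise in level, had the largest drop in log2 odds of a tail among the genes called for share. Of its reads 52.9% and 35.3% were tailed in Log phase, of 471 and 504 counts, and 13.5% and 16.1% on Day 2, of 10030 and 8196 counts (log2 odds −2.18 ± 0.34, adjusted p = 0.0380). SOD1, the cytosolic superoxide dismutase gene, went from 36.7% and 31.1% to 10.8% and 16.5% (−1.72 ± 0.30) while its level rose from 2343 and 2517 to 6045 and 3958 CPM. BAT2 went from 56.7% and 54.4% to 26.7% and 27.4% (−1.75 ± 0.22), with replicates closer together than those of GDH3 and with tails of 17.6 and 17.0 nt against 16.7 and 17.6 nt, which did not separate the groups.

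SHH3, a homolog of a succinate dehydrogenase subunit gene, went from 37.5% and 31.5% to 9.63% and 14.4% as its level rose by 4.05 ± 0.27. SCC4 had 13.2% and 9.31% against 3.14% and 4.17%. Among the 8 with the largest drop in share, 7 had risen in level, and RRP14 had fallen (−0.44 ± 0.17). Over all 53 genes called lower in share the lean was weaker, with 29 called higher in level and 13 lower. In the other direction NAB2 went from 17.2% and 16.7% to 49.7% and 32.8% (1.76 ± 0.32) as its level fell, and its tails went from 14.6 and 17.1 nt to 21.4 and 19.2 nt without being called. CTA1, the peroxisomal catalase gene, went from 13.95% and 18.7% to 49.8% and 40.6% while it rose by 1.297 ± 0.23. RRP8 had 28.0% and 17.4% against 60.6% and 45.5% with a fall of 1.70 ± 0.23 on the log2 scale. SYN8, a SNARE gene, was the third gene called in all 3 measures beside ILV5 and YMR114C, with a lower level (−0.81 ± 0.16), tails of 15.0 and 15.0 nt against 19.8 and 18.9 nt and tailed shares of 25.2% and 21.2% against 40.6% and 39.97%. Across 4302 genes tested for both, tail change and share change had a Spearman rho of 0.26, and for level and share rho was −0.12 over 4398 genes.

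Sequences next to the genes were set beside the changes in level. Pumilio proteins of yeast bind short elements in the 3′ untranslated region: Puf3 is known for binding mRNAs of mitochondrial proteins, and Puf4, which prefers an element longer by 1 base, for binding mRNAs of ribosome biogenesis. The 200 bases after the stop codon of 5766 genes were read from the R64 genome and searched on the gene's strand for TGTANATA (Puf3 type), found in 14.4% of the windows, and TGTANANTA (Puf4 type), found in 7.49%. Both were present in 46 genes. As background, 72 of 74 mitochondrial ribosomal protein genes held the first and 74 of 159 ribosome biogenesis genes the second. The genes shown are the 4 with the smallest p among those that rose with a Puf3-type match and among those that fell with a Puf4-type match, outside the lists set aside, chosen with their values known. Capitals mark the match, and coordinates are R64 with the strand printed.
YCL048W-A, chrIII:41896-41923, plus: taatactagaTGTATATAcgttgtgtgt
FRE7, chrXV:42658-42685, plus: ggcaaaaccaTGTAAATAtttgattatt
CYC3, chrI:68673-68700, minus: cgtaagtacgTGTAAATAgccaagtaag
YOR019W, chrXV:370479-370506, plus: atatagagtaTGTATATAaaatctctgt
ILV5, chrXII:837923-837951, minus: gacatacatcTGTACACTAggaagccctg
PHO3, chrII:427595-427623, minus: gtaacgagttTGTAGATTAgcggcagaat
MKC7, chrIV:744222-744250, minus: ggtataacatTGTACATTActtgaaagaa
HPT1, chrIV:1270769-1270797, plus: cagcagaattTGTACAATAgacaacgcat

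Genes with a Puf4-type match fell more often than genes without one. Of 419 tested, 211 were lower (50.4%) and 61 higher (14.6%), with a median of −0.47, where the 5128 without a match had 27.0% lower, 30.2% higher and a median of 0.06. Their median stayed below 0 with scaling to total counts (−0.08). Ribosome biogenesis genes are part of these counts. In an alternative added after the data had been seen, which kept only genes outside the lists set aside, 114 of 302 were lower (37.8%) and 51 higher (16.9%), against 24.7% lower and 28.3% higher without a match. Genes with a Puf3-type match had 299 of 829 higher (36.1%) and 169 lower (20.4%), with a median of 0.21 against −0.02 without one, and outside the lists set aside 33.6% of 696 were higher and 19.4% lower. The difference of medians, with a match minus without, was −0.62 to −0.42 for the Puf4 type and 0.199 to 0.260 for the Puf3 type under all 11 alternatives tried for level. The median tail change was 1.34 nt for genes with a Puf4-type match and 0.937 nt for the Puf3 type, beside 0.963 nt over all genes. PUF4 itself was among the genes that fell.

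**Figure D5:**
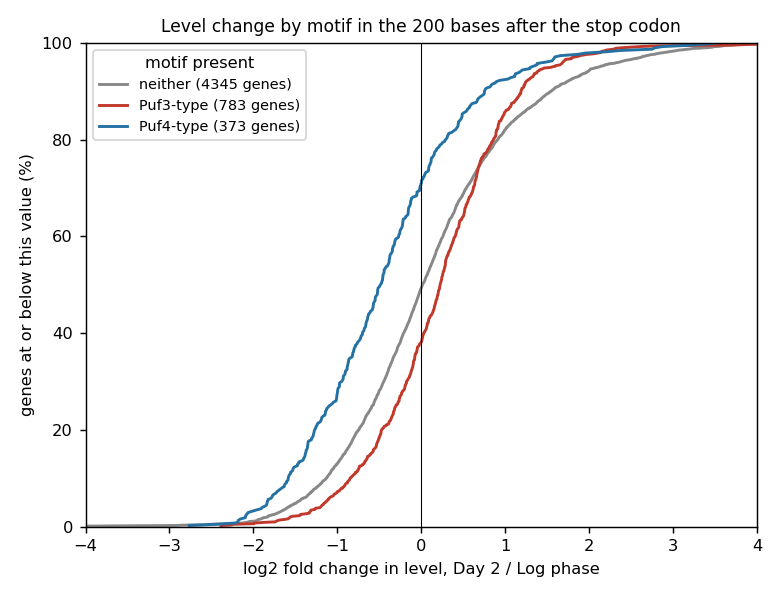
Cumulative share of genes by log2 fold change in level, for genes with a Puf3-type match, a Puf4-type match or neither in the 200 bases after the stop codon. The Puf4-type curve lies to the left, with a median of −0.48 in 373 genes, and the Puf3-type curve crosses that of genes with neither, with a median of 0.22 in 783 genes.

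Promoter windows from 250 bases before to 50 bases after each start codon were searched on both strands. The stress response element core AGGGG, bound by Msn2 and Msn4, was present in 21.9% of them. Of 1210 tested genes with it 537 were higher (44.4%) and 240 lower (19.8%), with a median of 0.37 against −0.07 without it. The palindrome AAAATTTT, the core of an element known from promoters of ribosome biogenesis genes, was present in 9.17%, and of 515 genes with it 307 were lower (59.6%) and 62 higher (12.04%), with a median of −0.69. Outside the lists set aside, 156 of 339 were lower (46.0%). GATGAG, the core of the PAC element of the same promoters, was present in 19.98%, with 464 of 1111 lower (41.8%) and a median of −0.29, which became 0.09 with scaling to total counts. The median without it went from 0.08 to 0.46, so the difference was −0.37 with either scaling. Outside the lists set aside 33.0% of the genes with it were lower, against 23.9% without, and the median was −0.12. The sites shown belong to the 3 genes with the smallest p in the direction of each motif outside the lists set aside, and they include DCS2 and GSP1 described above.
YCL048W-A, chrIII:41238-41255, plus: ctaAGGGGaaacgtaaga
DCS2, chrXV:657094-657118, plus: gcagacgcctAGGGGggaaataagg
YGR201C, chrVII:903272-903296, plus: ggcttttataAGGGGtggtatcgtt
ILV5, chrXII:839406-839433, minus: aaaaaattgaAAAATTTTgtataaaagg
GUA1, chrXIII:701556-701583, plus: gcaggaaatgAAAATTTTttttttcttt
GSP1, chrXII:721598-721625, minus: agatagaaaaAAAATTTTcgtttctttt

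ILV5 held both the promoter palindrome and the Puf4-type element, and was, with SYN8, one of 2 genes called lower in level and higher in both tail length and tailed share. A match is a description of the sequence and does not show that a protein was bound. Other promoter motifs searched included TGACTC of Gcn4, CACGTG of Cbf1 and Pho4, ACGCGT of the G1/S factor MBF, TCGTATA of Upc2, TGAAACA of Ste12, GGCGGC of Ume6, CATGTGAA of Ino2 and Ino4, GGTGGCAAA of Rpn4, TTACTAA of Yap1 and GATAAG of the nitrogen GATA factors. After the stop codon the others were the Puf5-type element given above, the AU-rich TATTTAT, the short word TGCAT and the efficiency-type element TATATA. Genes with these had medians from −0.28 (ACGCGT) to 0.24 (GGCGGC). With scaling to total counts the median was 0.09 with ACGCGT and 0.41 without it. Shares of calls differed more for some. With GATAAG 36.2% were higher and 22.8% lower, against 27.7% and 29.8% without it. With ACGCGT 14.4% were higher and 36.8% lower, against 29.5% and 28.5%. With GGTGGCAAA, in 67 genes tested, 19.4% were higher and 43.3% lower, against 29.1% and 28.6%.

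Tailed reads on RNAs that are not messenger RNAs shifted slightly. The share of tailed reads that fell on tRNA genes was 0.214% and 0.261% in Log phase and 0.140% and 0.0984% on Day 2, and on snoRNA genes 0.217% and 0.259% against 0.172% and 0.135%. On rRNA genes it was 0.130% and 0.145% against 0.207% and 0.158%. The groups did not overlap in any of these, and the exact permutation test again gave 0.333 for each.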

How the data were processed

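Per the labels' protocols, PAT-seq libraries were made from total RNA. The aligner, the tail-calling rule and the genome build: not given in the sources used here. The authors deposited raw counts per gene, counts of tailed reads, and the mean tail length per gene (score, nt). Levels were tested with edgeR 4.0.16 (quasi-likelihood, TMM, all 8 libraries in 4 groups, counts as deposited). Tail length was tested with limma 3.58.1, also with all 8 libraries in the fit. Genes needed 10 or more tailed reads in each of the 8 and were weighted by tailed reads up to 100. Tailed share was tested with limma on log2 odds, with an offset of 0.5 and all 8 libraries in the fit. Genes needed at least 20 reads in each of the 8 and tables within 10% of each other. R 4.3.3, DESeq2 1.42.0 and Python 3.11.15 were used, and the steps were checked on simulated data. The simulated tails had no shift common to all genes, so that check does not show how firm the tail and share calls are. The members and lists were chosen with earlier results of these data known. Named genes are the 12 largest rises and falls with at least 50 CPM outside the lists set aside, the 12 longest and shortest tails, 8 per share direction and per pairing of level and tail, and 4 per list. FRE7, CYC3, YOR019W, PHO3, YGR201C, LSR1, SYN8, HXT1 and the galactose genes were chosen after their values were seen. Entries merged or over 2-fold apart between the tables, and near-identical copies, are uncertain. Deposited gene positions matched R64 for 99.8% of 5813 entries, so sequences were read from that genome, promoters included in place of a promoter table. The choice between poly(A) sites was not analysed, and 1 promoter motif is not reported here. Alternatives were other scaling, filters, weights, tests and libraries left out.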

Additional observations from a re-analysis of the deposited data

How the results depend on the processing

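Scaling to total counts gave 2577 genes higher and 962 lower. The other alternatives for level kept both counts within 1.5 times, with 1358 to 1689 higher and 1325 to 1689 lower when a library was left out. The tail calls, 59 longer and 5 shorter, became 133 and 10 with at least 30 tailed reads, 605 and 43 with weights up to 1000, and 363 and 25 with at least 100 tailed reads, the last 2 chosen after seeing the data. They became 0 and 0 without weights, on a log2 scale, after centring, with only the 4 libraries and with any library left out. The median tail change became −0.0568 nt and the median log2 odds change −0.011 after centring. The share calls, 122 higher and 53 lower, became 206 and 105 with at least 100 reads, 460 and 223 with edgeR, 67 and 89 after centring, 1 and 0 with only the 4 libraries, and 0 to 239 and 0 to 64 with a library left out. The 43 joint calls became 96, 460 and 268 under the 3 settings that raised tail calls and 0 under those that removed them. By class these 3 settings gave 20, 84 and 64 higher and longer, 6, 17 and 11 higher and shorter, 70, 350 and 188 lower and longer, and 0, 9 and 5 lower and shorter, and total-count scaling gave 5 higher and shorter. On tailed reads alone the level change turned sign for TNA1 (0.29), HEM3 (0.15), GAB1 (0.0787), VCX1 (0.41), CTS1 (0.29), LSM3 (−0.13), GAT1 (0.23), MFA2 (0.49), BAR1 (0.0729) and IME2 (−0.0065). The replicate numbers did not pair the libraries (correlations of deviations −0.0042, 0.028 and −0.035). With a replicate block there were 1645 and 1643 level calls, 0 tail calls, 0 share calls and 0 joint calls. The causes of these changes were not tested. Precision is limited by 2 libraries a group and by low tailed-read counts.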
